A study of Homo sapiens with 16 samples.

Results

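The comparison set untreated NCI-H1650 cells against untreated NCI-H520 cells by ribosome profiling, which sequences the short mRNA fragments that ribosomes protect from nuclease and so reads which coding sequences are being translated. NCI-H1650 is a line from a lung adenocarcinoma, known for an activating deletion in EGFR, and NCI-H520 is a line from a squamous cell carcinoma of the lung. The members were 4 of the 16 libraries of the series, chosen by their titles: 2 of NCI-H1650 and 2 of NCI-H520, all given DMSO, the solvent, for 30 min. The labels call the genetic background of all 4 libraries WT, wild type. The other libraries were DMSO controls of the melanoma lines Hs 936.T and A375 (2 each) and, for each of the 4 lines, 1 library with 0.3 µM and 1 with 3 µM of RocA, rocaglamide A, a compound that clamps the helicase eIF4A (and, by the study's title, DDX3) onto mRNA. The title of the second NCI-H520 library calls it 520, but its cell line label reads NCI-H521, and so does that of the NCI-H520 library with 3 µM RocA. Both are treated here as NCI-H520, by their titles. Nothing says that the 2 libraries of a line came from separate cultures, so p-values measure the spread between these libraries, which may be technical.

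A footprint count follows both how much mRNA of a gene a cell holds and how many ribosomes each mRNA carries, and no mRNA libraries were analysed here, so these cannot be told apart. Nor can fewer cells that make a product and less of it per cell, since each library is a bulk culture. Lung adenocarcinoma arises from gland-forming or alveolar epithelium, often carries simple keratins and depends in part on receptor tyrosine kinases such as EGFR. Squamous carcinoma of the lung is known for the transcription factors SOX2 and p63, for keratins and desmosomes of layered epithelium, and for activity of NRF2, which drives genes of detoxification and glutathione.

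The files number their transcripts without naming them, so genes were named by matching the order of coding lengths to the GENCODE annotation, and each gene was read from the transcript entry with the most counts. The table held 19273 genes, and 12108 of them passed the filter on low counts in the 8 DMSO libraries and were tested. The named genes held between 987071 and 1342240 counts in each of the 4 lung libraries, and between 3642325 and 5883229 in the melanoma DMSO libraries. Values below are CPM, counts scaled to library size by the trimmed mean of M values (TMM), and differences are log2 values of NCI-H1650 minus NCI-H520. The value after ± is the size of the difference divided by the square root of edgeR's F statistic. It is not a standard error of the estimate. For genes with few counts in a line it can be smaller than the counting error. A gene was called where the Benjamini-Hochberg adjusted p of edgeR's quasi-likelihood test was under 0.05.

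Some libraries also held reads of genes that are typical of another line. Genes read almost only in 1 line were chosen from the RocA libraries (at least 100 CPM there and at least 20 times the level in every other line). They also needed at least 50 CPM in the DMSO libraries of their own line, so the choice was not fully separate from those libraries. They were then read in the DMSO libraries. The 22 such genes of NCI-H520 stood at a median of 4.83% of their NCI-H520 level in NCI-H1650 replicate 1 and at 0.331% in NCI-H1650 replicate 2. The 49 genes of NCI-H1650 stood at 0.294% of their NCI-H1650 level in NCI-H520 replicate 1 and at 2.07% in replicate 2. The 48 genes of Hs 936.T, a melanoma line, stood at 3.60% and 8.42% of their Hs 936.T level in NCI-H520 replicates 1 and 2, against 0.516% and 0.421% in NCI-H1650. NCI-H1650 replicate 1 and NCI-H520 replicate 2 therefore stand apart from the other library of their line, and whether a low level in either of them belongs to that line was not tested. Differences that move by more than 1.5-fold when 1 library is left out are given with that value, and a line left with 1 library is then assumed to vary like the other groups. Where the library left of a line holds only a few counts of a gene, that value hangs on them. It is then given without a counting interval.

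**Figure D1:**
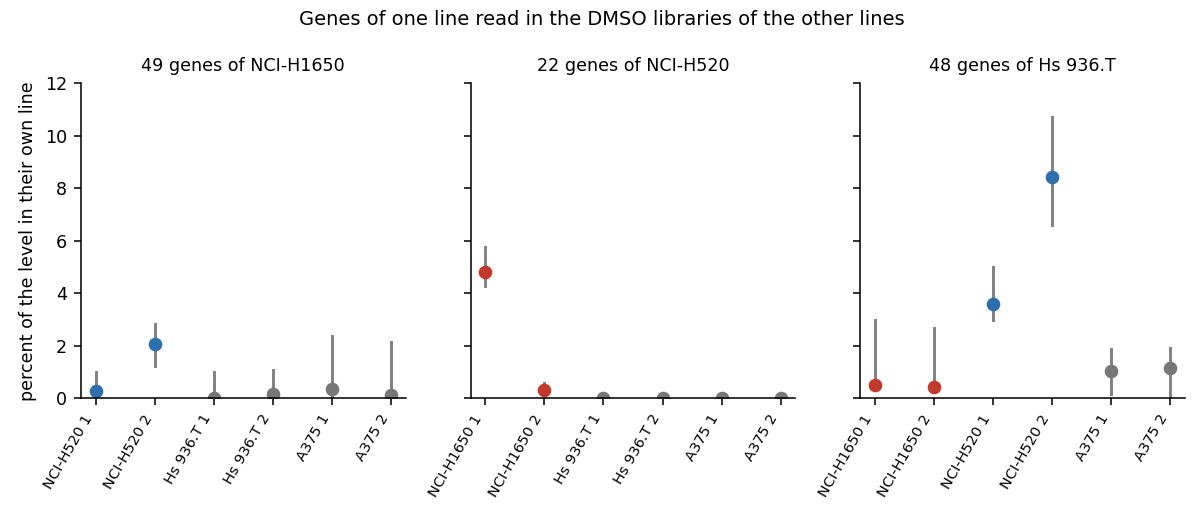
Median level of genes chosen as read almost only in NCI-H1650, NCI-H520 or Hs 936.T, as a percent of their mean level in their own line (vertical axis), in each DMSO library of the other lines (horizontal axis, line and replicate); bars span the middle 50% of the genes. NCI-H520 genes reach 4.83% in NCI-H1650 replicate 1, and Hs 936.T genes reach 8.42% in NCI-H520 replicate 2.

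The lines differed across much of the genome. Of the 12108 genes tested, 59.2% were called: 3686 genes (30.4%) were higher and 3483 (28.8%) were lower in NCI-H1650, and 5167 (42.7%) were called and at least 2-fold apart. The median difference over all genes was 0.01 (0.0032 with the 0-count genes described below at their bound), and the median size of a difference was 0.95. Both NCI-H1650 libraries lay above both NCI-H520 libraries for 3676 of the higher genes, and below them for 3479 of the lower genes. Over all genes tested, called or not, the lines did not overlap for 9533 (78.7%). A lack of overlap named below is to be read against that share. Among the lower genes, 139 were pigment cell genes read in NCI-H520 or stood more than 5 times higher in Hs 936.T than in NCI-H520, and these were set apart. Without NCI-H1650 replicate 1 and NCI-H520 replicate 2, when each line rests on 1 library that is assumed to vary like the other groups, 2958 genes were higher and 2811 lower. Counts of list members below are to be read against the shares of 30.4% and 28.8%.

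**Figure D2:**
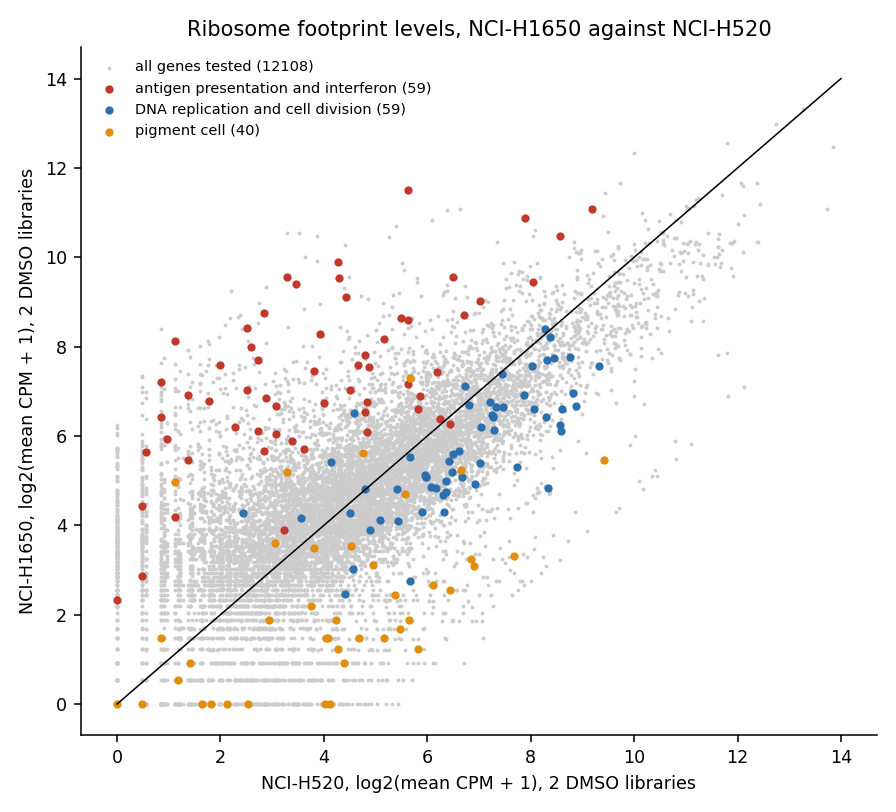
Mean footprint level of each gene tested in NCI-H520 (horizontal axis) and NCI-H1650 (vertical axis), as log2(mean CPM + 1) of the 2 DMSO libraries of each line; the line marks equal levels. Most antigen presentation and interferon genes lie above the line, and most DNA replication and pigment cell genes lie below it.

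Genes of simple epithelium, the single-layered lining of glands and airways, were mostly higher in NCI-H1650. Of the 47 simple epithelial genes tested, 38 were higher, 3 lower and 6 not called (median 1.90). Keratins 7, 8, 18 and 19 form the filaments of such cells. KRT7 had 1329.7 and 1481 CPM in NCI-H1650, against 27.4 and 47.4 CPM in NCI-H520 (log2 difference 5.20 ± 0.16, edgeR adjusted p = 4.24e-17). KRT8 had 4905 and 5426 CPM in NCI-H1650, against 1025 and 1031 CPM in NCI-H520 (log2 difference 2.33 ± 0.079). Both keratins were higher in both NCI-H1650 libraries than in either NCI-H520 library, and the gap was wider for KRT7 than for KRT8. CDH1, E-cadherin, which joins epithelial cells, had 1324 and 1257 CPM in NCI-H1650, against 173 and 152 CPM in NCI-H520 (log2 difference 2.997 ± 0.11). The mucin MUC1 had 164 and 153 CPM in NCI-H1650, against 0 and 0.7902 CPM in NCI-H520, or 1 count in all in NCI-H520. For MUC1 that is a ratio of 368 (95% exact counting interval 65.7 to 14588). Neither line's libraries overlapped the other's in any of these 4 genes. EPCAM, an adhesion molecule of epithelial cells, went the other way, with 409 and 299.9 CPM in NCI-H1650, against 989.5 and 988 CPM in NCI-H520 (log2 difference -1.48 ± 0.11, edgeR adjusted p = 2.2e-13). ESRP1, which directs epithelial splicing, had 117 and 115 CPM in NCI-H1650, against 144 and 145 CPM in NCI-H520, and was not called (edgeR adjusted p = 0.0571). Both lines thus held the epithelial markers, at summed levels of 14795 and 15803 CPM over 10 markers in NCI-H1650 and 4139 and 4128 CPM in NCI-H520.

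Genes of layered, squamous epithelium were also mostly higher in NCI-H1650, although NCI-H520 is the line from the squamous tumour. Of the 32 squamous genes tested, 25 were higher, 3 lower and 4 not called (median 2.68). DSG3, a desmosomal cadherin of layered epithelium, had 68.8 and 74.5 CPM in NCI-H1650, against 0 CPM in both NCI-H520 libraries. With 0 counts in NCI-H520, DSG3 was at least 55.5-fold higher in NCI-H1650, against the floor of 3 counts over both libraries that a count of 0 allows. IVL, involucrin of the cornified envelope, had 115 and 155 CPM in NCI-H1650, against 0 and 0.7902 CPM in NCI-H520, a ratio of 313 (95% exact counting interval 55.8 to 12422). KRT5, the basal keratin, had 8.82 and 12.6 CPM in NCI-H1650, against 0 and 0.7902 CPM in NCI-H520. KRT6A, a keratin of stressed layered epithelium with near-identical copies that could share its reads, had 73.2 and 45.8 CPM in NCI-H1650, against 5.67 and 11.9 CPM in NCI-H520 (log2 difference 2.72 ± 0.33). KRT6A differed by 3.37 without NCI-H520 replicate 2. DSG3, IVL and KRT5 were at 0 or 1 count in NCI-H520, and KRT6A was lower there without overlap. SOX2 went the other way, with 16.8 and 0 CPM in NCI-H1650, against 396 and 361 CPM in NCI-H520 (log2 difference -5.47 ± 0.49, edgeR adjusted p = 0.000177). SOX2 differed by -4.49 without NCI-H1650 replicate 2, and had 0 counts in NCI-H1650 without replicate 1. What was named as SOX2 spans chromosome 3 from 181711924 to 181714436 (hg38, + strand), over all its named entries. The SOX2 groups did not overlap, and its 19 counts in NCI-H1650 all came from replicate 1, the library in which NCI-H520 genes stood at 4.83% of their own level. TP63, which encodes p63, had 5 counts in NCI-H1650 and 0 in NCI-H520 and was not tested. The other lower members, named after their values were seen, were PTHLH and JAG1. PTHLH, a parathyroid hormone-like peptide, had 1.76 and 0 CPM in NCI-H1650, against 36.8 and 30.03 CPM in NCI-H520. JAG1, a Notch ligand, had 22.1 and 18.9 CPM in NCI-H1650, against 33.05 and 30.03 CPM in NCI-H520 (log2 difference -0.62 ± 0.27). JAG1 was not called without any 1 of the 4 libraries. The 11 squamous markers summed to 445 and 437 CPM in NCI-H1650 and to 457 and 432 CPM in NCI-H520, where SOX2 made up most of the sum.

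Of the 6 alveolar markers, LAMP3 was read in NCI-H1650, and the others were at or near 0 in both lines. SFTPB, SFTPC, NAPSA and SLC34A2, which encode surfactant proteins, a protease and a phosphate transporter of alveolar type II cells, had 0 counts in all 4 libraries, and NKX2-1, the lineage factor of lung adenocarcinoma, had 0 counts in NCI-H1650 and 10 in NCI-H520. LAMP3, a lysosomal membrane protein of alveolar type II cells that other cells also make, had 35.3 and 42.2 CPM in NCI-H1650, against 1.89 and 2.37 CPM in NCI-H520 (log2 difference 4.14 ± 0.47). The LAMP3 values of the lines did not overlap. Of the 11 alveolar and adenocarcinoma genes tested, 6 were higher, 4 lower and 1 not called (median 1.16), so 22 of the 33 list members had too few counts to test. CAV1, a membrane protein of caveolae, had 211 and 173 CPM in NCI-H1650, against 1.89 and 6.32 CPM in NCI-H520 (log2 difference 5.47 ± 0.30). CAV1 differed by 6.62 without NCI-H520 replicate 2. FOXA2, a factor of endoderm, had 5.29 and 0 CPM in NCI-H1650, against 103 and 72.7 CPM in NCI-H520 (log2 difference -5.003 ± 0.47). FOXA2 differed by -4.03 without NCI-H1650 replicate 2, and had 0 counts in NCI-H1650 without replicate 1. With the longest coding entry of each gene in place of the most read one, the median of this list was 2.65.

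Genes of nerve and neuroendocrine cells were mostly lower in NCI-H1650. Of the 23 neuroendocrine and neuronal genes tested, 1 was higher, 16 lower and 6 not called (median -1.81, or -1.52 with genes at 0 in a line at their bound). CHGB, a protein of secretory granules, had 19.4 and 3.59 CPM in NCI-H1650, against 478 and 369 CPM in NCI-H520 (log2 difference -5.18 ± 0.28, edgeR adjusted p = 3.19e-10). CHGB differed by -6.88 without NCI-H1650 replicate 1 and by -4.44 without NCI-H1650 replicate 2. UCHL1, a ubiquitin hydrolase of neurons, had 35.3 and 1.796 CPM in NCI-H1650, against 787 and 825 CPM in NCI-H520 (log2 difference -5.43 ± 0.69, edgeR adjusted p = 0.0199). UCHL1 differed by -8.80 without NCI-H1650 replicate 1 and by -4.51 without NCI-H1650 replicate 2, and was not called without NCI-H520 replicate 1 or 2. DPYSL3, which binds tubulin in growing axons, had 78.5 and 8.98 CPM in NCI-H1650, against 1843 and 1727 CPM in NCI-H520 (log2 difference -5.34 ± 0.53). DPYSL3 differed by -7.65 without NCI-H1650 replicate 1 and by -4.51 without NCI-H1650 replicate 2. In each of these the NCI-H1650 level came mainly from replicate 1, and all lay far below NCI-H520. NCAM1, a neural adhesion molecule, had 0 CPM in both NCI-H1650 libraries, against 13.2 and 11.1 CPM in NCI-H520, at least 9.02-fold lower in NCI-H1650. CHGA, a granule protein like CHGB, had 11 counts, all in NCI-H1650, so the defining markers of this list did not point 1 way. The summed level of the 5 markers was 7.94 and 8.08 CPM in NCI-H1650 and 36.8 and 26.9 CPM in NCI-H520.

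Mesenchymal genes split. Of the 24 mesenchymal genes tested, 11 were higher, 7 lower and 6 not called (median 0.90). TGFBI, a matrix protein induced by TGF-beta, had 659 and 607 CPM in NCI-H1650, against 17.9 and 22.1 CPM in NCI-H520 (log2 difference 4.97 ± 0.16, edgeR adjusted p = 7.42e-28). COL5A1, a fibrillar collagen, had 169 and 163 CPM in NCI-H1650, against 0.944 and 3.16 CPM in NCI-H520 (log2 difference 6.24 ± 0.31). COL5A1 differed by 7.38 without NCI-H520 replicate 2. COL5A1 was near 0 in NCI-H520 and TGFBI was not, and both were higher in each NCI-H1650 library than in either NCI-H520 library. VIM, vimentin of mesenchymal filaments, had 25.6 and 14.4 CPM in NCI-H1650, against 156 and 274 CPM in NCI-H520 (log2 difference -3.44 ± 0.48). CDH2, N-cadherin, had 8.82 and 10.8 CPM in NCI-H1650, against 83.1 and 77.4 CPM in NCI-H520 (log2 difference -3.03 ± 0.26). VIM stood at 2018 CPM in Hs 936.T, whose genes stood at 3.60% and 8.42% in the NCI-H520 libraries, and the part of those reads in the VIM level was not tested. CDH2 stood at 12.2 CPM in Hs 936.T, below its NCI-H520 level. Markers of blood and vessel cells were low. CD3E had 0 counts in all 4 libraries, and the 7 markers summed to 32.6 and 35.02 CPM in NCI-H1650 and 6.61 and 12.6 CPM in NCI-H520, of which CD68, a lysosomal protein of macrophages that other cells also make, was 28.2 and 30.5 CPM in NCI-H1650 and 3.78 and 10.3 CPM in NCI-H520. Of the 6 blood and endothelial genes tested, 4 were higher, 0 lower and 2 not called (median 3.28), with 1 lower at an unadjusted p under 0.05 and none by DESeq2 or limma-voom.

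**Figure D3:**
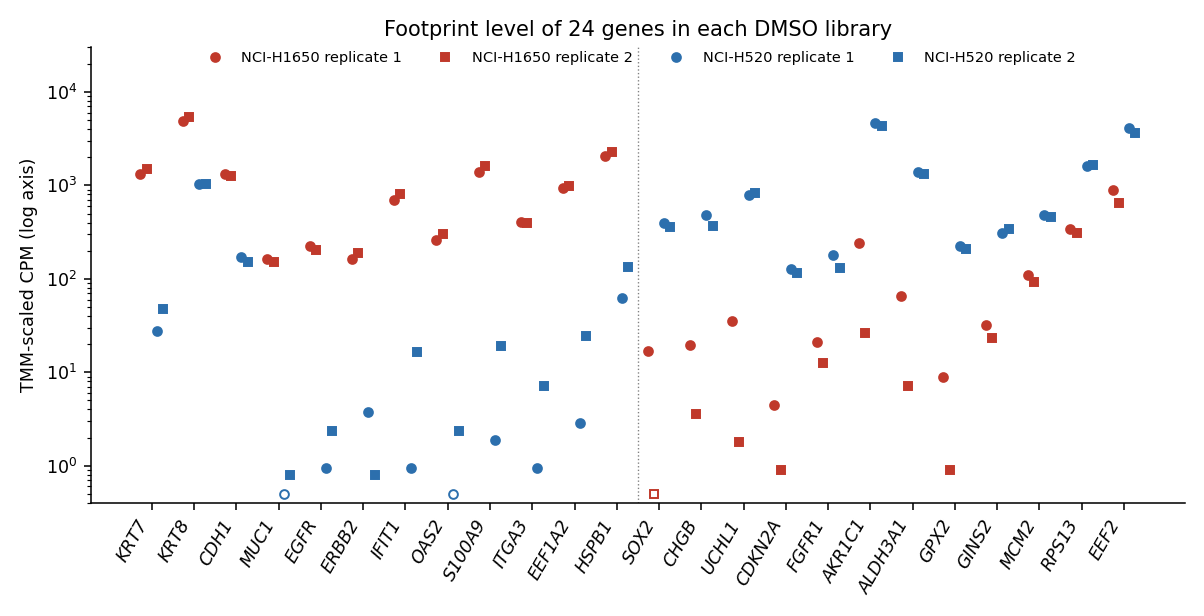
Footprint level of 24 genes in each of the 4 lung DMSO libraries, in TMM-scaled CPM on a log axis; circles are replicate 1 and squares replicate 2, red for NCI-H1650 and blue for NCI-H520, and open symbols at the bottom are libraries with 0 counts. The 12 genes on the left were higher and the 12 on the right lower in NCI-H1650, and for SOX2 to GPX2 the NCI-H1650 replicate 1 value lies above that of replicate 2.

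Receptor tyrosine kinases of the EGFR family were higher in NCI-H1650. EGFR had 226 and 206 CPM in NCI-H1650, against 0.944 and 2.37 CPM in NCI-H520 (log2 difference 6.93 ± 0.30, edgeR adjusted p = 1.59e-23). EGFR differed by 7.76 without NCI-H520 replicate 2. Its 4 counts in NCI-H520 against 485 in NCI-H1650 set the lines apart in both libraries. All transcript entries named as EGFR together span chromosome 7 from 55019021 to 55211628 (hg38, + strand). ERBB2 had 163 and 187 CPM in NCI-H1650, against 3.78 and 0.7902 CPM in NCI-H520 (log2 difference 6.32 ± 0.32). ERBB2 differed by 7.71 without NCI-H520 replicate 1 and by 5.50 without NCI-H520 replicate 2. ERBB3 had 39.7 and 31.4 CPM in NCI-H1650, against 5.67 and 11.9 CPM in NCI-H520 (log2 difference 1.97 ± 0.40). ERBB3 differed by 2.63 without NCI-H520 replicate 2. MET, the receptor of hepatocyte growth factor, had 142 and 103 CPM in NCI-H1650, against 16.1 and 33.2 CPM in NCI-H520 (log2 difference 2.28 ± 0.22). MET differed by 2.92 without NCI-H520 replicate 2. For these 4 receptors the lines did not overlap, and the gap was widest for EGFR and ERBB2. MST1R, the receptor of the MET family that binds macrophage-stimulating protein, had 33.5 and 44.9 CPM in NCI-H1650, against 0 CPM in both NCI-H520 libraries, at least 30.3-fold higher in NCI-H1650. FGFR1 went the other way, with 21.2 and 12.6 CPM in NCI-H1650, against 180.3 and 129.6 CPM in NCI-H520 (log2 difference -3.18 ± 0.28, edgeR adjusted p = 2.63e-09). FGFR2 had 21.2 and 21.6 CPM in NCI-H1650, against 0 and 0.7902 CPM in NCI-H520, a ratio of 49.7 (95% exact counting interval 8.497 to 2002). Of the 7 receptors, FGFR1 alone was lower in NCI-H1650.

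Among genes altered in lung cancer, calls went both ways. Of the 45 lung cancer driver and suppressor genes tested, 17 were higher, 17 lower and 11 not called (median 0.37). CDKN2A, which encodes the cell cycle inhibitors p16 and ARF from overlapping frames that these counts do not separate, had 4.41 and 0.898 CPM in NCI-H1650, against 127 and 116 CPM in NCI-H520 (log2 difference -5.48 ± 0.33, edgeR adjusted p = 5.38e-19). CDKN2A differed by -7.04 without NCI-H1650 replicate 1 and by -4.77 without NCI-H1650 replicate 2. Its neighbour MTAP, which salvages methionine, had 26.5 and 25.1 CPM in NCI-H1650, against 110.5 and 71.1 CPM in NCI-H520 (log2 difference -1.79 ± 0.22). CDKN1A, the inhibitor p21, had 151 and 217 CPM in NCI-H1650, against 9.44 and 13.4 CPM in NCI-H520 (log2 difference 3.98 ± 0.23). The inhibitors thus went opposite ways, without overlap of the lines. MYC had 59.999 and 62.9 CPM in NCI-H1650, against 148 and 169 CPM in NCI-H520 (log2 difference -1.37 ± 0.16). RB1, the retinoblastoma protein that restrains cell cycle entry, had 36.2 and 35.02 CPM in NCI-H1650, against 82.1 and 84.5 CPM in NCI-H520 (log2 difference -1.23 ± 0.19). SMARCA4, a chromatin remodeller, had 131 and 110.5 CPM in NCI-H1650, against 214 and 212 CPM in NCI-H520 (log2 difference -0.82 ± 0.13). All 3 were lower in NCI-H1650, by less than CDKN2A. NRAS, BRAF, PIK3CA and HRAS, which carry growth signals, were not called, at differences between -0.30 for NRAS and 0.89 for HRAS. MAP2K1, a kinase that activates ERK, had 64.4 and 66.5 CPM in NCI-H1650, against 174 and 206 CPM in NCI-H520 (log2 difference -1.54 ± 0.15).

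Genes that ERK signalling switches on did not move together. Of the 26 ERK feedback and immediate early genes tested, 14 were higher, 7 lower and 5 not called (median 1.83). FOS, EGR1 and JUNB, factors made early after a growth signal, were higher in NCI-H1650. FOS had 81.2 and 59.3 CPM in NCI-H1650, against 0 and 2.37 CPM in NCI-H520, a ratio of 54.5 (95% exact counting interval 18.3 to 267). EGR1 had 71.5 and 61.96 CPM in NCI-H1650, against 1.89 and 3.95 CPM in NCI-H520 (log2 difference 4.45 ± 0.86, edgeR adjusted p = 0.00607). EGR1 differed by 5.10 without NCI-H520 replicate 2, and was not called without NCI-H1650 replicate 1 or NCI-H520 replicate 1 or 2. JUNB had 336 and 354 CPM in NCI-H1650, against 23.6 and 14.2 CPM in NCI-H520 (log2 difference 4.22 ± 0.19, edgeR adjusted p = 2.59e-22). SPRY4, ETV5 and DUSP6 were lower. SPRY4, which dampens receptor signalling, had 6.18 and 0.898 CPM in NCI-H1650, against 74.6 and 62.4 CPM in NCI-H520 (log2 difference -4.24 ± 0.46). SPRY4 differed by -6.21 without NCI-H1650 replicate 1 and by -3.45 without NCI-H1650 replicate 2. ETV5, a factor that ERK induces, had 14.1 and 8.98 CPM in NCI-H1650, against 189.8 and 189.6 CPM in NCI-H520 (log2 difference -4.03 ± 0.21, edgeR adjusted p = 1.37e-20). DUSP6, the phosphatase that turns ERK off, named after its value was seen, had 12.4 and 3.59 CPM in NCI-H1650, against 93.5 and 93.2 CPM in NCI-H520 (log2 difference -3.54 ± 0.30). DUSP6 differed by -4.71 without NCI-H1650 replicate 1 and by -2.91 without NCI-H1650 replicate 2. None of the 6 overlapped between the lines.

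Genes of antigen presentation and of the interferon response were almost all higher in NCI-H1650. Of the 59 antigen presentation and interferon genes tested, 56 were higher, 0 lower and 3 not called (median 3.60, or 3.16 with genes at 0 in a line at their bound). No member was lower by edgeR's quasi-likelihood test, none at an unadjusted p under 0.05, and none by DESeq2 or limma-voom. Interferon-stimulated genes carry a promoter element bound by IRF9 and its partners. The core of that element, GAAA, any 2 bases and GAAA on either strand, was found in the 250 bases before the start of 28 of the 46 list genes with a promoter in the RefSeq table (60.9%), against 3.71% of all 27305 genes there. A match is a description of the letters and not a measured site. The 170 bases before the start of 3 members, chosen because they hold the core and lie among the widest differences or highest levels of the list, are shown with the matches in capitals (RefSeq, GRCh38.p14).
IFIT1: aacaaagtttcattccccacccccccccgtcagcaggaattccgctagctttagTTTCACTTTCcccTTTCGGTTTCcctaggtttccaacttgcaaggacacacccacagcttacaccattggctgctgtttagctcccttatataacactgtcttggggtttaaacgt
IFI44L: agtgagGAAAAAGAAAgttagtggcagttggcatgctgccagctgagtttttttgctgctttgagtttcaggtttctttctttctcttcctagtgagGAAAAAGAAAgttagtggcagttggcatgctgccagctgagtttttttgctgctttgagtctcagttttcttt
IFI6: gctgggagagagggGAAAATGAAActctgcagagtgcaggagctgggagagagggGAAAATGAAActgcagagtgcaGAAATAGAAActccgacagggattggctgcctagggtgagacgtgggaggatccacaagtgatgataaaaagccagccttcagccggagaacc
The IFIT1 stretch is at chr10:89392453-89392622 on the + strand, that of IFI44L at chr1:78620278-78620447 on the + strand and that of IFI6 at chr1:27672193-27672362 on the - strand. Their matches begin between 73 and 164 bases before the start.

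IFIT1, which binds foreign RNA ends, had 696 and 811 CPM in NCI-H1650, against 0.944 and 16.6 CPM in NCI-H520 (log2 difference 6.31 ± 0.38, edgeR adjusted p = 4.42e-06). IFIT1 differed by 5.50 without NCI-H520 replicate 1. It differed by 9.56 without NCI-H520 replicate 2, a value that hangs on the 0.944 CPM of the library left. Most of its NCI-H520 level came from replicate 2, the library in which NCI-H1650 genes stood at 2.07%. OAS2, an enzyme that senses double-stranded RNA and activates RNase L, had 259 and 299.9 CPM in NCI-H1650, against 0 and 2.37 CPM in NCI-H520, a ratio of 217 (95% exact counting interval 73.8 to 1053). IFI44L had 123 and 172 CPM in NCI-H1650, against 0 and 1.58 CPM in NCI-H520, a ratio of 171 (95% exact counting interval 46.9 to 1416). IFI6, a small membrane protein, was chosen after its values were seen and had 2578 and 3241 CPM in NCI-H1650, against 24.5 and 71.9 CPM in NCI-H520 (log2 difference 5.86 ± 0.35, edgeR adjusted p = 0.000117). IFI6 differed by 6.87 without NCI-H520 replicate 2. ISG15, a ubiquitin-like modifier, also chosen afterwards, had 474 and 632 CPM in NCI-H1650, against 14.2 and 26.9 CPM in NCI-H520 (log2 difference 4.71 ± 0.19). All of these were high in both NCI-H1650 libraries, with no overlap. The signalling factor IRF9 had a smaller gap, with 69.7 and 74.5 CPM in NCI-H1650, against 3.78 and 3.95 CPM in NCI-H520 (log2 difference 4.20 ± 0.36). B2M, the light chain of MHC class I, differed less, with 1954 and 2384 CPM in NCI-H1650, against 520.3 and 638 CPM in NCI-H520 (log2 difference 1.90 ± 0.094). IRF9 and B2M were likewise named after their values were seen. ERAP2, which trims peptides for class I, had 43.2 and 54.8 CPM in NCI-H1650, against 0.944 and 0 CPM in NCI-H520, a ratio of 114 (95% exact counting interval 20.005 to 4535). CIITA, the regulator of MHC class II, was low, at 4.41 and 3.59 CPM in NCI-H1650, against 0 CPM in both NCI-H520 libraries. CD74, the class II chaperone, had 113 and 128 CPM in NCI-H1650, against 0 and 3.16 CPM in NCI-H520 (log2 difference 6.09 ± 0.68, edgeR adjusted p = 0.000288). CD74 differed by 5.23 without NCI-H520 replicate 1, and had 0 counts in NCI-H520 without replicate 2. With RocA, 49 of 51 members tested were higher in NCI-H1650, against 20.4% of all genes tested there.

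**Figure D4:**
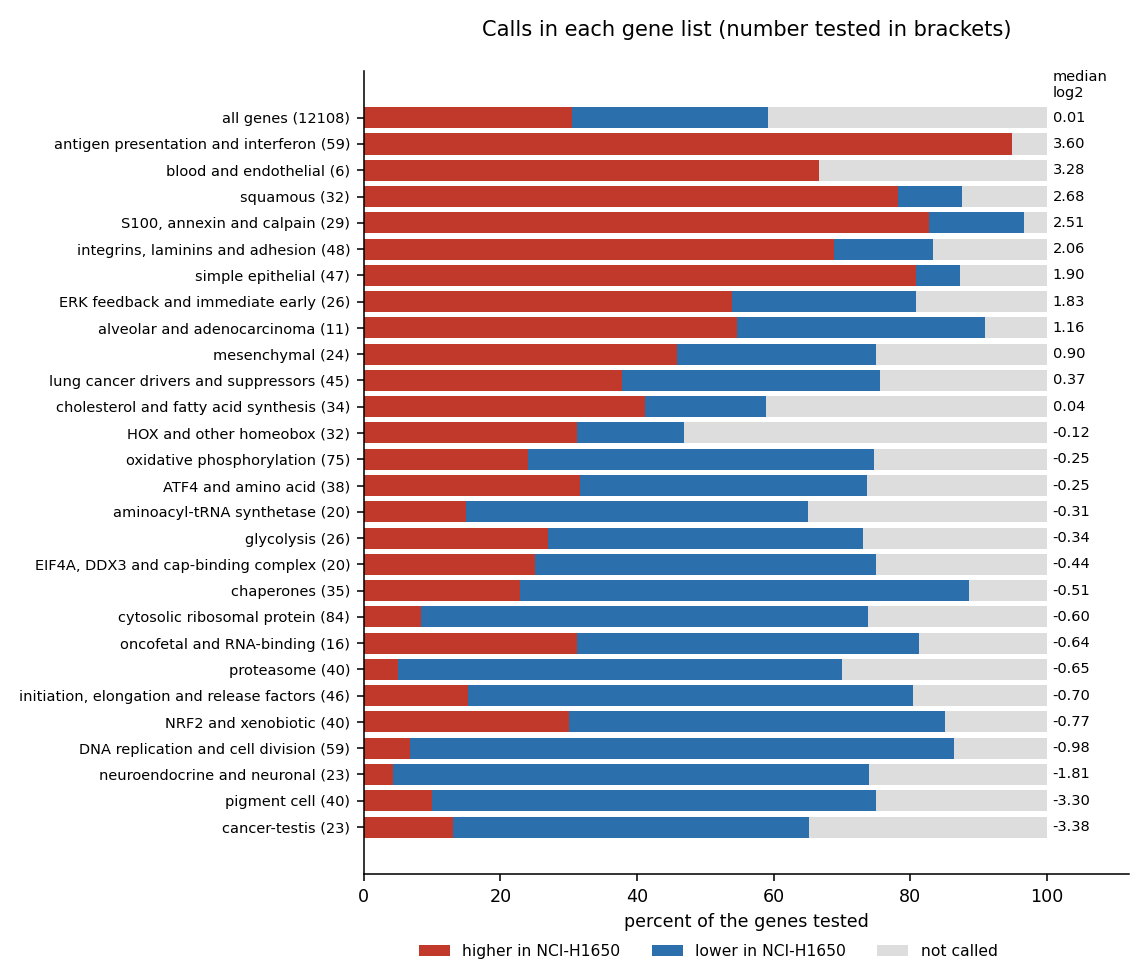
Percent of the genes tested in each list that were called higher (red), called lower (blue) or not called (grey) in NCI-H1650 against NCI-H520, with the median log2 difference at the right; lists run from the highest median to the lowest below the row of all genes. Antigen presentation and interferon genes have 94.9% higher calls, against 30.4% over all genes.

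Adhesion and matrix genes were mostly higher in NCI-H1650. Of the 48 integrin, laminin and adhesion genes tested, 33 were higher, 7 lower and 8 not called (median 2.06). ITGA3, the laminin-binding integrin chain of epithelium, had 409 and 397 CPM in NCI-H1650, against 0.944 and 7.11 CPM in NCI-H520 (log2 difference 6.54 ± 0.31, edgeR adjusted p = 1.34e-12). ITGA3 differed by 5.81 without NCI-H520 replicate 1 and by 8.66 without NCI-H520 replicate 2. LAMA3, a chain of laminin-332 in the basement membrane, had 50.3 and 61.96 CPM in NCI-H1650, against 0 and 0.7902 CPM in NCI-H520, a ratio of 130.4 (95% exact counting interval 22.98 to 5189). COL17A1, a hemidesmosomal collagen, had 121 and 123 CPM in NCI-H1650, against 0 and 3.16 CPM in NCI-H520 (log2 difference 6.11 ± 0.38). COL17A1 differed by 5.25 without NCI-H520 replicate 1, and had 0 counts in NCI-H520 without replicate 2. PLAU, urokinase, had 31.8 and 33.2 CPM in NCI-H1650, against 0 CPM in both NCI-H520 libraries, at least 25.2-fold higher in NCI-H1650. ITGA5, a fibronectin receptor chain, had 12.4 and 18.9 CPM in NCI-H1650, against 0 CPM in both NCI-H520 libraries, at least 12.1-fold higher. The groups did not overlap in any of the 5.

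Calcium-binding S100 proteins and annexins followed the same direction. Of the 29 S100, annexin and calpain genes tested, 24 were higher, 4 lower and 1 not called (median 2.51). S100A9, which pairs with S100A8 in inflamed epithelium and phagocytes, had 1382 and 1608 CPM in NCI-H1650, against 1.89 and 18.96 CPM in NCI-H520 (log2 difference 7.06 ± 0.45, edgeR adjusted p = 0.000121). S100A9 differed by 6.29 without NCI-H520 replicate 1 and by 9.58 without NCI-H520 replicate 2. S100A8 had 517 and 697 CPM in NCI-H1650, against 0.944 and 6.32 CPM in NCI-H520 (log2 difference 7.28 ± 0.58). S100A8 differed by 6.57 without NCI-H520 replicate 1 and by 9.25 without NCI-H520 replicate 2. In NCI-H520 most reads of both came from replicate 2. AHNAK2, a giant scaffold protein, had 278 and 258 CPM in NCI-H1650, against 0.944 and 3.95 CPM in NCI-H520 (log2 difference 6.67 ± 0.33). AHNAK2 differed by 6.07 without NCI-H520 replicate 1 and by 8.07 without NCI-H520 replicate 2. TGM2, a transglutaminase, had 339 and 329 CPM in NCI-H1650, against 0 and 8.69 CPM in NCI-H520 (log2 difference 6.13 ± 0.28). TGM2 differed by 5.25 without NCI-H520 replicate 1, and had 0 counts in NCI-H520 without replicate 2. All 4 lay far below in NCI-H520. ANXA8 had 51.2 and 45.8 CPM in NCI-H1650, against 0 CPM in both NCI-H520 libraries. Its near-identical copy ANXA8L1, which could share its reads, had 44.1 and 46.7 CPM in NCI-H1650, against 0 CPM in both NCI-H520 libraries. S100A4, a member linked to motility, went the other way, with 35.3 and 35.02 CPM in NCI-H1650, against 186 and 221 CPM in NCI-H520 (log2 difference -2.54 ± 0.17, edgeR adjusted p = 5.68e-17).

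Genes of detoxification and glutathione went both ways, and more were lower than higher in NCI-H1650. Of the 40 NRF2 and xenobiotic genes tested, 12 were higher, 22 lower and 6 not called (median -0.77). AKR1C1, an aldo-keto reductase, had 244 and 26.04 CPM in NCI-H1650, against 4609 and 4291 CPM in NCI-H520 (log2 difference -5.03 ± 0.72, edgeR adjusted p = 0.00383). AKR1C1 differed by -7.44 without NCI-H1650 replicate 1 and by -4.19 without NCI-H1650 replicate 2. AKR1C2, a near-identical copy that could share its reads, had 212 and 24.2 CPM in NCI-H1650, against 3679 and 3568 CPM in NCI-H520. ALDH3A1, an aldehyde dehydrogenase, had 66.2 and 7.18 CPM in NCI-H1650, against 1393 and 1308 CPM in NCI-H520 (log2 difference -5.19 ± 0.70, edgeR adjusted p = 0.0223). ALDH3A1 differed by -7.57 without NCI-H1650 replicate 1 and by -4.35 without NCI-H1650 replicate 2, and was not called without NCI-H520 replicate 1 or 2. ALDH1A1 had 59.999 and 1.796 CPM in NCI-H1650, against 1107 and 1074 CPM in NCI-H520 (log2 difference -5.13 ± 0.69, edgeR adjusted p = 0.00767). ALDH1A1 differed by -9.24 without NCI-H1650 replicate 1 and by -4.18 without NCI-H1650 replicate 2. GPX2, a glutathione peroxidase, had 8.82 and 0.898 CPM in NCI-H1650, against 222 and 208 CPM in NCI-H520 (log2 difference -5.44 ± 0.28, edgeR adjusted p = 6.51e-19). GPX2 differed by -7.86 without NCI-H1650 replicate 1 and by -4.60 without NCI-H1650 replicate 2. In all 5 the 2 NCI-H520 libraries lay close together and NCI-H1650 replicate 1 lay well above replicate 2. NCI-H520 genes stood at 4.83% of their own level in that library, and the part of such reads in these values was not tested. GSTP1, a glutathione transferase named after its value was seen, had 109 and 7.18 CPM in NCI-H1650, against 1827 and 1738 CPM in NCI-H520 (log2 difference -4.92 ± 0.65). GSTP1 differed by -7.97 without NCI-H1650 replicate 1 and by -4.03 without NCI-H1650 replicate 2. CYP1B1, a cytochrome P450 that the aryl hydrocarbon receptor induces, went the other way, with 278 and 281 CPM in NCI-H1650, against 0.944 and 8.69 CPM in NCI-H520 (log2 difference 5.75 ± 0.26, edgeR adjusted p = 3.11e-22). CYP1B1 differed by 4.997 without NCI-H520 replicate 1 and by 8.13 without NCI-H520 replicate 2. GSTP1 thus followed the aldo-keto reductases, and CYP1B1 did not. NQO1, a quinone reductase often used to read NRF2 activity, had 1798 and 1740.3 CPM in NCI-H1650, against 1788 and 2042 CPM in NCI-H520, and was not called (edgeR adjusted p = 0.196). NFE2L2, which encodes NRF2, had 159 and 169.7 CPM in NCI-H1650, against 119 and 119 CPM in NCI-H520 (log2 difference 0.46 ± 0.13). KEAP1, which marks NRF2 for degradation, had 104 and 80.8 CPM in NCI-H1650, against 175 and 159 CPM in NCI-H520 (log2 difference -0.85 ± 0.15).

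NRF2 binds the antioxidant response element. Its core, TGAC, any 3 bases and GCA on either strand, was found before the start of 7 of the 29 list genes in the promoter table (24.1%), against 3.22% of all genes there. The other list genes with the core were CBR1, CYP4F11, EPHX1, GCLM and TXNRD1, and whether the core goes with a lower level was not tested. The 170 bases before the start of GPX2 and GSTP1, both lower in NCI-H1650 and both holding 1 match, are shown with the match in capitals.
GPX2: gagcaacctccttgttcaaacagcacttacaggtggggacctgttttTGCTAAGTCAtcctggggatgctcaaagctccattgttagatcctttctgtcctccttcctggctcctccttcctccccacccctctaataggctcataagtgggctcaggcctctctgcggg
GSTP1: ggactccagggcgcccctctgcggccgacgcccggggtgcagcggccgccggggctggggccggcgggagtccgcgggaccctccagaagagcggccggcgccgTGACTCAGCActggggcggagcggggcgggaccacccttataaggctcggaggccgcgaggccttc
The GPX2 stretch is at chr14:64942746-64942915 on the - strand and that of GSTP1 at chr11:67583642-67583811 on the + strand (RefSeq, GRCh38.p14). The match begins 123 bases before the GPX2 start and 66 bases before the GSTP1 start.

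Of the helicases that the study's title names, the eIF4A genes were lower in NCI-H1650, and DDX3X was not called. eIF4A unwinds the leaders of mRNAs for the initiating ribosome, and DDX3 is a related helicase. EIF4A1 had 1160.3 and 1103 CPM in NCI-H1650, against 1972 and 2038 CPM in NCI-H520 (log2 difference -0.83 ± 0.073, edgeR adjusted p = 2.48e-13). Its paralog EIF4A2 had 151 and 128 CPM in NCI-H1650, against 483 and 504 CPM in NCI-H520 (log2 difference -1.83 ± 0.12, edgeR adjusted p = 1.4e-17). Per 1000 codons counted, EIF4A1 had 2850 CPM in NCI-H1650 and 5051 in NCI-H520, and EIF4A2 had 349.7 in NCI-H1650 and 1241 in NCI-H520. EIF4A1 was thus the more read paralog in each line. DDX3X had 411 and 371 CPM in NCI-H1650, against 445 and 614 CPM in NCI-H520, and was not called (log2 difference -0.44 ± 0.17, edgeR adjusted p = 0.0527), although it was called under 6 of 16 alternatives. PDCD4, which binds and inhibits eIF4A, went the other way, with 322 and 324 CPM in NCI-H1650, against 58.5 and 63.2 CPM in NCI-H520 (log2 difference 2.40 ± 0.14, edgeR adjusted p = 3.22e-19). Of the 20 eIF4A, DDX3 and cap-binding genes tested, 5 were higher, 10 lower and 5 not called (median -0.44). PDCD4 was thus read more where EIF4A1 and EIF4A2 were read less. EIF4EBP1, which holds back the cap-binding protein eIF4E, had 44.999 and 34.1 CPM in NCI-H1650, against 144 and 119 CPM in NCI-H520 (log2 difference -1.72 ± 0.18). PABPC1, which binds the poly(A) tail, had 747 and 782 CPM in NCI-H1650, against 227 and 259 CPM in NCI-H520 (log2 difference 1.65 ± 0.10, edgeR adjusted p = 4.18e-19).

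The wider translation machinery was mostly lower in NCI-H1650. Of the 46 initiation, elongation and release factor genes tested, 7 were higher, 30 lower and 9 not called (median -0.70). EEF2, the factor that moves the ribosome along the mRNA, had 889 and 649 CPM in NCI-H1650, against 4069.5 and 3674 CPM in NCI-H520 (log2 difference -2.33 ± 0.11, edgeR adjusted p = 5.49e-12). EEF2K, the kinase that inhibits EEF2, had 78.5 and 73.6 CPM in NCI-H1650, against 16.996 and 20.5 CPM in NCI-H520 (log2 difference 2.01 ± 0.23). The factor was thus lower and its inhibitor higher in NCI-H1650. EEF1A2, an elongation factor of muscle and nerve that some tumours express, had 943 and 984 CPM in NCI-H1650, against 2.83 and 24.5 CPM in NCI-H520 (log2 difference 6.04 ± 0.31, edgeR adjusted p = 4.93e-07). EEF1A2 differed by 5.29 without NCI-H520 replicate 1 and by 8.37 without NCI-H520 replicate 2. Of the 84 cytosolic ribosomal protein genes tested, 7 were higher, 55 lower and 22 not called (median -0.60). RPS13, a protein of the small subunit, had 341 and 312 CPM in NCI-H1650, against 1611 and 1636 CPM in NCI-H520 (log2 difference -2.31 ± 0.091), and its 4 values fell into 2 separate pairs. Ribosomal protein genes have many processed copies in the genome, and the sources used here do not say how reads shared with such copies were counted. Of the 20 aminoacyl-tRNA synthetase genes tested, 3 were higher, 10 lower and 7 not called (median -0.31). FARSA, a subunit of the phenylalanine enzyme, had 61.8 and 66.5 CPM in NCI-H1650, against 262 and 221 CPM in NCI-H520 (log2 difference -1.91 ± 0.14). FARSB, the other subunit, had 74.999 and 71.8 CPM in NCI-H1650, against 276 and 269 CPM in NCI-H520 (log2 difference -1.89 ± 0.14).

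Genes of growth and protein upkeep were also mostly lower in NCI-H1650. Of the 59 DNA replication and cell division genes tested, 4 were higher, 47 lower and 8 not called (median -0.98). MCM2, a subunit of the replicative helicase, had 109 and 92.5 CPM in NCI-H1650, against 481 and 456 CPM in NCI-H520 (log2 difference -2.22 ± 0.12). MCM3, another, had 80.3 and 55.7 CPM in NCI-H1650, against 399 and 369.8 CPM in NCI-H520 (log2 difference -2.50 ± 0.14). GINS2, a partner of that helicase, had 31.8 and 23.3 CPM in NCI-H1650, against 308 and 337 CPM in NCI-H520 (log2 difference -3.55 ± 0.17, edgeR adjusted p = 1.49e-22). These 3 and RRM1, which makes deoxynucleotides, were each lower in both NCI-H1650 libraries. RRM1 had 85.6 and 64.7 CPM in NCI-H1650, against 383 and 378 CPM in NCI-H520 (log2 difference -2.34 ± 0.13). Of the 40 proteasome genes tested, 2 were higher, 26 lower and 12 not called (median -0.65). PSMD2, a subunit of the proteasome's regulatory particle, had 358 and 364 CPM in NCI-H1650, against 1242 and 1148 CPM in NCI-H520 (log2 difference -1.73 ± 0.091). Of the 35 chaperone genes tested, 8 were higher, 23 lower and 4 not called (median -0.51). HSPD1, the mitochondrial chaperonin, had 855 and 683 CPM in NCI-H1650, against 2374 and 2404 CPM in NCI-H520 (log2 difference -1.63 ± 0.085). HSPB1, a small heat shock protein, went the other way and had 2056 and 2271 CPM in NCI-H1650, against 62.3 and 134 CPM in NCI-H520 (log2 difference 4.43 ± 0.27, edgeR adjusted p = 4.59e-05). HSPB1 differed by 5.10 without NCI-H520 replicate 2. Of the 75 oxidative phosphorylation genes tested, 18 were higher, 38 lower and 19 not called (median -0.25). NDUFS5, a complex I subunit, had 262 and 228 CPM in NCI-H1650, against 1464 and 1361 CPM in NCI-H520 (log2 difference -2.53 ± 0.10).

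Calls in the metabolic lists went both ways. Of the 38 ATF4 and amino acid genes tested, 12 were higher, 16 lower and 10 not called (median -0.25). ASS1, which makes argininosuccinate from citrulline, had 512 and 492 CPM in NCI-H1650, against 33.05 and 35.6 CPM in NCI-H520 (log2 difference 3.87 ± 0.15). DDIT4, an inhibitor of mTORC1 induced by stress, had 286 and 306 CPM in NCI-H1650, against 16.996 and 26.1 CPM in NCI-H520 (log2 difference 3.75 ± 0.18). CEBPB, a transcription factor of stress and acute responses, had 323 and 326 CPM in NCI-H1650, against 14.2 and 27.7 CPM in NCI-H520 (log2 difference 3.92 ± 0.19). SLC7A1, a carrier of cationic amino acids, went the other way, with 42.4 and 17.1 CPM in NCI-H1650, against 308 and 276 CPM in NCI-H520 (log2 difference -3.29 ± 0.20). SLC7A1 differed by -4.12 without NCI-H1650 replicate 1. Of the 26 glycolysis genes tested, 7 were higher, 12 lower and 7 not called (median -0.34). SLC16A3, which exports lactate, had 239 and 279 CPM in NCI-H1650, against 9.44 and 12.6 CPM in NCI-H520 (log2 difference 4.53 ± 0.21). PFKM, a phosphofructokinase, had 36.2 and 47.6 CPM in NCI-H1650, against 159.6 and 162 CPM in NCI-H520 (log2 difference -1.94 ± 0.17). Of the 34 cholesterol and fatty acid synthesis genes tested, 14 were higher, 6 lower and 14 not called (median 0.04). MSMO1, an enzyme of cholesterol synthesis, had 199 and 173 CPM in NCI-H1650, against 41.5 and 33.98 CPM in NCI-H520 (log2 difference 2.31 ± 0.17).

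Germline and embryonic genes differed by member. Of the 23 cancer-testis genes tested, 3 were higher, 12 lower and 8 not called (median -3.38, or -0.95 with genes at 0 in a line at their bound). MAGEA4, an antigen of testis and tumours, had 27.4 and 0 CPM in NCI-H1650, against 561 and 531 CPM in NCI-H520 (log2 difference -5.30 ± 0.59, edgeR adjusted p = 0.00147), and all 31 of its NCI-H1650 counts were in replicate 1. MAGEA4 differed by -4.32 without NCI-H1650 replicate 2, and had 0 counts in NCI-H1650 without replicate 1. XAGE1B, another such antigen with a near-identical copy, had 215 and 266 CPM in NCI-H1650, against 0 and 3.16 CPM in NCI-H520 (log2 difference 7.09 ± 0.33). XAGE1B differed by 6.23 without NCI-H520 replicate 1, and had 0 counts in NCI-H520 without replicate 2. Of the 12 lower members, 6 were set apart for their Hs 936.T level. CTAG1B, one of these, had 0 CPM in both NCI-H1650 libraries, against 2.83 and 9.48 CPM in NCI-H520 and stood at 106 CPM in Hs 936.T. Of the 16 oncofetal and RNA-binding genes tested, 5 were higher, 8 lower and 3 not called (median -0.64, or -0.31 with genes at 0 in a line at their bound). IGF2BP3, an RNA-binding protein of the embryo, had 121 and 134 CPM in NCI-H1650, against 7.55 and 10.3 CPM in NCI-H520 (log2 difference 3.81 ± 0.24). MSI1, a neural stem cell RNA-binding protein, had 3.53 and 1.796 CPM in NCI-H1650, against 38.7 and 42.7 CPM in NCI-H520 (log2 difference -3.91 ± 0.45). MSI1 differed by -4.50 without NCI-H1650 replicate 1. Of the 32 HOX and other homeobox genes tested, 10 were higher, 5 lower and 17 not called (median -0.12, or 0.00 with genes at 0 in a line at their bound). TBX3, a T-box factor, had 10.6 and 1.796 CPM in NCI-H1650, against 146 and 122 CPM in NCI-H520 (log2 difference -4.41 ± 0.29). TBX3 differed by -6.21 without NCI-H1650 replicate 1 and by -3.65 without NCI-H1650 replicate 2.

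Among called genes with at least 20 CPM in the higher line, the 15 widest differences in each direction, outside the genes set apart, were mostly genes with 0 counts in the other line, so they are given as bounds. Their order comes from fitted values, which for a gene at 0 depend on the prior count, and does not rank them against genes with counts in both lines. Bounds are set against 3 counts over both libraries of that line. SEMA3D, a secreted guidance protein, had 71.5 and 79.02 CPM in NCI-H1650, against 0 CPM in both NCI-H520 libraries, at least 58.3-fold higher in NCI-H1650. TRIM22, an interferon-induced ubiquitin ligase, had 58.2 and 73.6 CPM in NCI-H1650, against 0 CPM in both NCI-H520 libraries (at least 51.04-fold). SYCE1, a protein of the meiotic synaptonemal complex, had 60.9 and 67.3 CPM in NCI-H1650, against 0 CPM in both NCI-H520 libraries (at least 49.7-fold). ANPEP, an aminopeptidase, had 60.9 and 44.001 CPM in NCI-H1650, against 0 CPM in both NCI-H520 libraries (at least 40.7-fold). CCL5, a chemokine, had 50.3 and 50.3 CPM in NCI-H1650, against 0 CPM in both NCI-H520 libraries (at least 38.97-fold). The others were DSG3, ERICH5, DPYD, CCDC80, ANXA8, PLAAT4, ANXA8L1, PPARG, CALB2 and MST1R. All 15 had 0 counts in both NCI-H520 libraries, with bounds from 30.3-fold for MST1R to 58.3-fold for SEMA3D.

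In the other direction ELMO1, an activator of the GTPase RAC, had 0 CPM in both NCI-H1650 libraries, against 52.9 and 31.6 CPM in NCI-H520, at least 30.9-fold lower in NCI-H1650. KCNJ10, a potassium channel, had 0 CPM in both NCI-H1650 libraries, against 42.5 and 35.6 CPM in NCI-H520 (at least 28.997-fold lower). NDN, necdin, an imprinted growth suppressor, had 0 CPM in both NCI-H1650 libraries, against 26.4 and 37.1 CPM in NCI-H520 (at least 24.2-fold lower). These 3 had no count in NCI-H1650. SOX1, a neural SOX factor, had 0 CPM in both NCI-H1650 libraries, against 28.3 and 19.8 CPM in NCI-H520 (at least 17.7-fold lower). GAL, a neuropeptide, had 0 CPM in both NCI-H1650 libraries, against 22.7 and 30.8 CPM in NCI-H520 (at least 20.3-fold lower). ZNF385B had the highest level of the 15 in NCI-H520, with 1.76 and 0 CPM in NCI-H1650, against 123 and 83.8 CPM in NCI-H520. Its 2 counts in NCI-H1650, both in replicate 1, give a ratio of 114 (95% exact counting interval 31.2 to 947), here of NCI-H520 over NCI-H1650. The others were SERPINF1, PIPOX, TESC, CST2, EFCC1, FSTL5, ABHD12B, CALB1 and FAM83F, each with 0 counts in both NCI-H1650 libraries.

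Pigment cell genes were mostly lower in NCI-H1650, and in NCI-H520 most were read at a level near that of the 48 Hs 936.T genes. Of the 40 pigment cell genes tested, 4 were higher, 26 lower and 10 not called (median -3.30, or -1.98 with genes at 0 in a line at their bound). All members of this list were set apart by rule, whatever their Hs 936.T level. PMEL, the fibril protein of melanosomes, had 49.4 and 36.8 CPM in NCI-H1650, against 381 and 988 CPM in NCI-H520 and 13718 CPM in Hs 936.T. TYR, tyrosinase, had 3.53 and 1.796 CPM in NCI-H1650, against 31.2 and 66.4 CPM in NCI-H520 and 679.7 CPM in Hs 936.T. Over 12 defining markers the median was 0.437% and 0.277% of the Hs 936.T level in NCI-H1650, and 3.67% and 8.18% in NCI-H520. These NCI-H520 shares stood beside 3.60% and 8.42% for the 48 Hs 936.T genes. Those genes were chosen without leaving out pigment cell genes and can include some of these markers, so the shares are not independent. Reads of the line itself and reads of Hs 936.T cannot be told apart for these markers. With RocA the NCI-H520 shares, still taken of the Hs 936.T level under DMSO, were 0.619% at 0.3 µM and 1.57% at 3 µM. Hs 936.T itself then stood at 76.7% and 72.3% of that level, and the RocA libraries were scaled apart from the DMSO libraries. MITF, the factor of the pigment lineage, had 21.2 and 28.7 CPM in NCI-H1650, against 30.2 and 63.2 CPM in NCI-H520 (log2 difference -0.94 ± 0.29). MITF differed by -0.29 without NCI-H520 replicate 2, and was not called without NCI-H1650 replicate 1 or NCI-H520 replicate 2. RAB38 and MYO5A, which carry pigment granules and have roles in other cells, stood at a larger share of their Hs 936.T level. RAB38 had 7.06 and 3.59 CPM in NCI-H1650, against 62.3 and 74.3 CPM in NCI-H520 and 166 CPM in Hs 936.T. MYO5A had 36.2 and 37.7 CPM in NCI-H1650, against 99.1 and 100.3 CPM in NCI-H520 and 164 CPM in Hs 936.T. Both were also lower in NCI-H1650 with RocA (log2 difference -4.73 for RAB38 and log2 difference -1.48 for MYO5A).

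Median differences varied between chromosomes. On chromosome 20, 59.8% of the 338 genes tested were higher in NCI-H1650 (median 1.04), against 30.4% over all genes. On chromosome 13, 49.0% of the 208 genes tested were lower (median -0.82), and the median was below 0 in all 13 windows of 15 neighbouring tested genes there. Chromosome 18 had a median of 0.62 and chromosome 6 one of -0.52. The same 4 medians in the RocA libraries were 0.998 for chromosome 20, -0.75 for chromosome 13, 0.56 for chromosome 18 and -0.52 for chromosome 6. Copy number was not measured.

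Among 795 windows of 15 genes, the highest median of fitted values was 6.47, on chromosome 5 from 140673904 to 141012347, where 12 protocadherin alpha genes lie, which encode adhesion proteins of neurons and epithelium. These genes share their last exons, so reads there cannot be assigned to 1 of them, and with 11 of the 15 genes at 0 counts in a line the median was 1.79 with those genes at their bound, which put the window at rank 18 from the top. The other 2 windows named here, on chromosomes 19 and 1, then stood at ranks 1 and 2. PCDHA12 had 10.6 and 8.08 CPM in NCI-H1650, against 0 CPM in both NCI-H520 libraries. The next, on chromosome 1 from 151873584 to 153616986, had a median of 5.68 (2.99 with 3 genes at their bound) and holds S100 genes with IVL and SPRR3. There S100A11 had 1957 and 2303 CPM in NCI-H1650, against 42.5 and 122 CPM in NCI-H520 (log2 difference 4.64 ± 0.38). S100A11 differed by 5.63 without NCI-H520 replicate 2. S100A3 had 3.53 and 0 CPM in NCI-H1650, against 26.4 and 20.5 CPM in NCI-H520, opposite to most of its neighbours. The third, on chromosome 19 from 50996007 to 52171643, had a median of 4.55 (3.11 with 5 genes at their bound) and holds the kallikreins KLK8 and KLK10 and a row of zinc finger genes. KLK10, a kallikrein protease, had 40.6 and 62.9 CPM in NCI-H1650, against 0 and 1.58 CPM in NCI-H520. ZNF649 had 13.2 and 14.4 CPM in NCI-H1650, against 0 CPM in both NCI-H520 libraries. All 3 windows held 12 higher genes of 15.

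The lowest window, with a median of -2.38 (-2.25 with 1 gene at its bound), runs on chromosome 4 from 53285 to 1208962 and holds ZNF595, GAK and FGFRL1. GAK, a kinase of clathrin uncoating, had 59.1 and 37.7 CPM in NCI-H1650, against 245 and 219 CPM in NCI-H520. The next, at -2.20, runs on chromosome 19 from 2037465 to 2721418, where OAZ1, which controls polyamine synthesis, had 93.5 and 84.4 CPM in NCI-H1650, against 496 and 515 CPM in NCI-H520 (log2 difference -2.51 ± 0.12). LSM7, a subunit of an RNA-binding ring, had 53.8 and 40.4 CPM in NCI-H1650, against 291 and 251 CPM in NCI-H520. The third, at -2.04 (-1.99 with 1 gene at its bound, then at rank 4 from the bottom), runs on chromosome 1 from 44213455 to 45491166, where EIF2B3 and KIF2C lie. EIF2B3, a subunit of the exchange factor eIF2B, had 44.1 and 32.3 CPM in NCI-H1650, against 230.4 and 248 CPM in NCI-H520 (log2 difference -2.65 ± 0.16). The 3 windows held 10, 10 and 12 lower genes of 15.

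**Figure D5:**
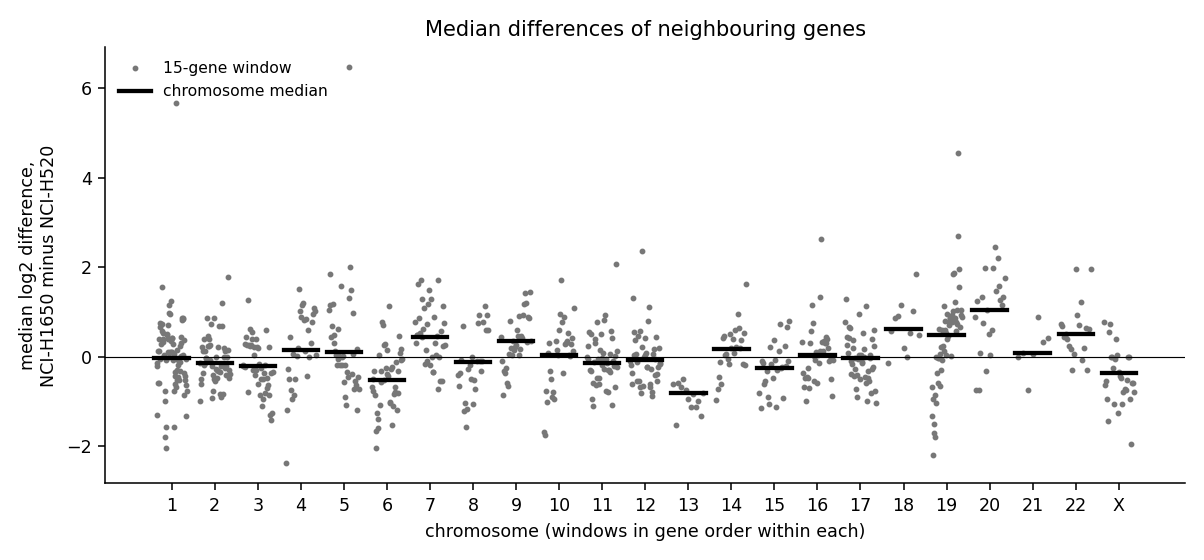
Median log2 difference, NCI-H1650 minus NCI-H520, of each window of 15 neighbouring tested genes (grey points, in gene order within a chromosome) and of each chromosome (black bars). Chromosome 20 has a median of 1.04 and chromosome 13 one of -0.82.

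The RocA libraries gave the same contrast in other libraries, 2 for each line, with 87266 to 562940 counts each. The share of NCI-H520 genes in the NCI-H1650 libraries with RocA was not read, since those genes were chosen there. AKR1C1, AKR1C2, ALDH3A1 and ALDH1A1 differed by -4.32, -4.24, -4.34 and -4.24 with RocA. Under DMSO without NCI-H1650 replicate 1 they differed by -7.44, -7.25, -7.57 and -9.24. Whether reads of NCI-H520 enter the RocA values of NCI-H1650 was not tested. Of 7380 genes tested there, 38.8% were called, 1508 higher and 1354 lower in NCI-H1650. Of the 4887 genes called under DMSO and tested with RocA, 4557 (93.2%) had the same sign. Among the 2660 genes called in both, 2652 had the same sign and 8 the opposite one. The 2660 were 54.4% of the DMSO calls tested in both and 93.0% of the RocA calls. The RocA libraries also differ in treatment, and 1 dose each stands for a replicate, so the spread between doses enters that test. Without the NCI-H520 library with 3 µM, whose cell line label reads NCI-H521, an alternative added after the data were seen, 1128 genes were higher and 1083 lower of 8360 tested (26.4% called), and the lone NCI-H520 library is assumed to vary like the other lines. Of the 5346 genes called under DMSO and tested there, 91.8% had the same sign, and among the 2118 called in both, 3 had the opposite one. SOX2 then differed by -4.25 and IFIT1, at 2.31 CPM in the lone NCI-H520 library, by 7.55 on the log2 scale. EGFR had 0 CPM in that library, so its fitted value of 8.79 depends on the prior count and is not a measured size. With RocA at 0.3 and 3 µM, EGFR had 113 and 94.7 CPM in NCI-H1650, against 0 and 2.16 CPM in NCI-H520 (log2 difference 6.28). SOX2 had 7.08 and 9.47 CPM in NCI-H1650, against 136 and 136 CPM in NCI-H520 (log2 difference -4.09). IFIT1 had 492 and 559 CPM in NCI-H1650, against 2.31 and 4.32 CPM in NCI-H520 (log2 difference 7.19). These 3 kept their direction without overlap. PABPC1 did not, since with RocA it had 38.9 and 114 CPM in NCI-H1650, against 69.4 and 62.6 CPM in NCI-H520, and was not called (log2 difference -0.16).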

How the data were processed

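The libraries are ribosome profiling, sequenced and processed by the submitters. Each deposited file lists numbered transcript entries with a length and a raw footprint count. Per the submitters' processing notes, CASAVA 1.8, Bowtie2 2.1.0, TopHat2 2.0.9 and the hg38 build were used, in roles that the notes do not give, and no annotation release or strand setting is named in the sources used here. Tested on the files, the length column equals the coding codons less 10, so gene names rest on matching runs of neighbouring lengths to GENCODE 29. Of 182398 entries, 93916 were coding, and 82097 of these (87.4%) were named. As a check, the coding lengths of 1019 annotated genes were replaced by lengths drawn at random from the annotation. Entries were still matched to 3.24% of these altered genes. Entries of Y-linked, readthrough and repeated genes were left out, and each gene was taken from its entry with the highest count over the 16 files.

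Counts were tested in R 4.3.3 with edgeR 4.0.16 (quasi-likelihood, TMM scaling, filterByExpr at a minimum count of 10) over the 8 DMSO libraries of 4 lines, which share 1 estimate of the spread. The script was tested on simulated data. The exact permutation test of 2 libraries against 2 cannot go below p = 0.333. Replicates of a line correlated at 0.961 (NCI-H1650) and 0.964 (NCI-H520) and differed by more than counting noise, so each counts as 1 library. A count of 0 was given a bound from 3 counts over that line's libraries, and genes with 1 to 3 counts a ratio with its exact 95% interval, which cover counting error only. For medians at the bound, genes at 0 in a line and with at most 3 counts in the other were set to 0.

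The text names the 15 widest differences in each direction, up to 6 called members of each list, lung cancer drivers and suppressors, pigment cell genes, cell type markers, EIF4A1, EIF4A2, DDX3X and genes of the 3 highest and 3 lowest windows. Not all genes so found are described. IFI6, ISG15, IRF9, B2M, DUSP6, GSTP1, NQO1, JAG1 and PTHLH, and those of the closing section, were chosen after their values were seen. The genes, lists and libraries were all chosen with earlier results of these data known. Alternatives were DESeq2 1.42.0, limma-voom 3.58.1, other scalings, filters, entries and library sets.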

Additional observations from a re-analysis of the deposited data

Results flagged for a closer look

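Among 2660 genes called in both treatments, 8 had opposite signs under DMSO and with RocA. Whether the treatments differ was not tested for these genes, and the RocA values rest on fewer counts. Without the NCI-H520 library with 3 µM RocA, whose cell line label reads NCI-H521, 3 of the 8 were still called with RocA, EIF5B, PCBP2 and SP100, and all 8 kept the sign of their RocA difference. The log2 difference, NCI-H1650 minus NCI-H520, was given by edgeR for each treatment.

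ANKRD11, a chromatin regulator, was at -1.05 under DMSO and 2.21 with RocA. DSN1, a kinetochore protein, was at -0.68 under DMSO and 2.67 with RocA. EIF5B, which joins the ribosomal subunits at initiation, was at -0.47 under DMSO and 1.55 with RocA. SGK1, a kinase set apart above for its Hs 936.T level, was at -0.74 under DMSO and 1.20 with RocA. SP100, a nuclear body protein, was at -0.50 under DMSO and 1.30 with RocA. These 5 genes were lower in NCI-H1650 under DMSO and higher with RocA. PCBP2, an RNA-binding protein, was at 0.55 under DMSO and -0.944 with RocA. RPLP1, a ribosomal stalk protein, was at 0.62 under DMSO and -0.68 with RocA. TMEM123, a membrane mucin, was at 1.41 under DMSO and -3.11 with RocA.

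TMEM123 had 154 and 186 CPM in NCI-H1650 and 68.9 and 59.3 CPM in NCI-H520 under DMSO. With RocA at 0.3 and 3 µM it had 3.54 and 0 CPM in NCI-H1650 and 18.5 and 25.9 CPM in NCI-H520. DSN1 had 45.9 and 56.6 CPM in NCI-H1650 and 83.1 and 81.4 CPM in NCI-H520 under DMSO. With RocA it had 31.8 and 28.4 CPM in NCI-H1650 and 4.62 and 4.32 CPM in NCI-H520. In both genes the RocA libraries of the lines did not overlap either.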

How the results depend on the processing

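No called difference changed sign in the 5876 fits of 384 named genes under 16 alternatives that kept the DMSO libraries. Of these, 5709 kept their side of the threshold, 136 lost the call and 31 gained it. Leaving out 1 library gave 3153 to 3320 higher and 2990 to 3178 lower genes, with 4652 to 4931 called and at least 2-fold apart. DESeq2 gave 3306 higher and 2966 lower genes, limma-voom 3674 and 3419, no filter on low counts 3750 and 3600, a minimum count of 50 2883 and 2796, and the 4 lung libraries alone 3216 and 3070. Same-numbered libraries of different lines deviated from their line means with correlations from -0.02 to 0.0677. Counting noise pulls such values toward 0, so they cannot show whether the libraries were made in pairs. With the replicate block 3651 genes were higher and 3458 lower, and 4 named genes lost the call.

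In the RocA libraries in place of DMSO, 1508 genes were higher and 1354 lower, and 2506 were called and at least 2-fold apart, over 7380 genes tested at lower depth. DESeq2 on the RocA libraries gave 886 lower genes, and the cause was not tested. The RocA difference had the opposite sign for 8 named genes called in either treatment: ETFB (-0.15), GYPC (4.86), KEAP1 (0.16), LZTS1 (0.17), MITF (0.41), MLPH (1.96), PABPC1 (-0.16) and SOX10 (0.14). The cause was not tested. With the longest coding entry, the median of the alveolar list was 2.65, over the few members that could be tested. Depth limits weakly read genes, and a gene at 0 counts in a line was not detectable at this depth, which does not make it absent.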

Other observations

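Metallothioneins, small proteins that bind zinc and copper, lay in a window that was mostly higher in NCI-H1650. The window on chromosome 16 from 56466836 to 57148367 had a median log2 difference of 2.62, with 14 of 15 genes higher and 1 lower in NCI-H1650. MT2A had 514 and 669 CPM in NCI-H1650, against 28.3 and 56.9 CPM in NCI-H520 (log2 difference 3.76 ± 0.20, edgeR adjusted p = 5.12e-09). MT2A differed by 4.37 without NCI-H520 replicate 2. MT1X had 276 and 335 CPM in NCI-H1650, against 21.7 and 33.2 CPM in NCI-H520 (log2 difference 3.45 ± 0.16). The lines did not overlap in either gene, and reads of metallothioneins can be shared between near-identical copies. With RocA the differences were 3.58 for MT2A and 3.41 for MT1X. NLRC5, a regulator of MHC class I genes in the same window, had 18.5 and 16.2 CPM in NCI-H1650, against 0 and 2.37 CPM in NCI-H520. NUP93, a nuclear pore protein and the lower member, had 146 and 131 CPM in NCI-H1650, against 220.0 and 224 CPM in NCI-H520 (log2 difference -0.68 ± 0.12).

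The window that follows the kallikreins and zinc finger genes on chromosome 19, from 52190039 to 52962911, had a median of 2.70, with 13 of 15 genes higher. Both windows were chosen after their values were seen.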
